A study of Mus musculus with 56 samples.

Results

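Cry1, Cry2, Ciart, Bhlhe40 and Bhlhe41 encode repressors that act on E-box genes of the circadian clock, and their transcripts were followed over a day in mouse gastrocnemius, a calf muscle. The 5 genes were taken by Entrez identifier (12952, 12953, 229599, 20893 and 79362) from a deposited table of 19072 genes. All 5 passed the filter for testing, a mean over the libraries of at least 1 read per 1000000 (CPM), which left 12024 genes.

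The mice were female C57BL/6J of 9 weeks, on a cycle of 12 h light and 12 h dark. They came at 7 weeks, ate freely for 7 days and were then fed for 7 days either by day (daytime-restricted feeding, DRF) or by night (nighttime-restricted feeding, NRF, which the study takes as its reference). No group ate freely at collection, with the hours of food access not given in the sources used here. Muscle was collected at zeitgeber time (ZT, hours from lights on) 0, 4, 8, 12, 16, 20 and 24, with 4 polyadenylated RNA libraries in each of 14 groups. The labels do not say that the 4 libraries of a group came from separate animals, so the p-values below measure the spread between these libraries. No step of the protocol marks the strand.

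In the clock of a mammalian cell, CLOCK and BMAL1 bind E-boxes, short DNA sites in the promoters of their target genes, and switch those genes on. The cryptochromes CRY1 and CRY2 enter the nucleus with the period proteins and silence CLOCK-BMAL1, CIART (also called CHRONO) binds BMAL1 and represses it, and BHLHE40 and BHLHE41 (DEC1 and DEC2) occupy E-boxes themselves. All 5 genes are thus known both as repressors at E-boxes and as targets of the activators that they oppose, and in muscle, as in other peripheral tissues, feeding time is known as a cue that can set the clock.

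The promoters are shown because the genes are grouped by a DNA site, and 3 of the 4 windows printed hold the canonical E-box. Each is the 250 bases before the RefSeq start on GRCm38.p6, read 5′ to 3′ on the gene's own strand, which is the minus strand in these 4 genes. Capitals mark the E-box CACGTG and its variant CACGTT, searched on both strands, so that the variant appears as its reverse complement AACGTG where it lies on the other strand. The windows are chr10:85185055-85185304 for Cry1, chr2:92434070-92434319 for Cry2, chr3:95882229-95882478 for Ciart and chr6:145865421-145865670 for Bhlhe41.
Cry1: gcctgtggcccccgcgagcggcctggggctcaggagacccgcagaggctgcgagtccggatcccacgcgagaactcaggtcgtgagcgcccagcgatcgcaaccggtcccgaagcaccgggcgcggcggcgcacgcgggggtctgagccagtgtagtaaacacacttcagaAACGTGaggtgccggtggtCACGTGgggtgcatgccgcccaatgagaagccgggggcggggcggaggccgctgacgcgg
Cry2: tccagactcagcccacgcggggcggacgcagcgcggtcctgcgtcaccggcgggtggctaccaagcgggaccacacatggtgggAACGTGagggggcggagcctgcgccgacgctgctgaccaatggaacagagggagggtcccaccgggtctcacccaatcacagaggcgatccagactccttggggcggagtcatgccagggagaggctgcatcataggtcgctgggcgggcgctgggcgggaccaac
Ciart: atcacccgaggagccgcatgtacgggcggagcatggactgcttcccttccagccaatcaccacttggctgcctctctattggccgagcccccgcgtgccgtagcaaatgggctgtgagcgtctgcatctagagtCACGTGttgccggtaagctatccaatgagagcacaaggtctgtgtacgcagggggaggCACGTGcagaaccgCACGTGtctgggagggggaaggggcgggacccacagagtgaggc
Bhlhe41: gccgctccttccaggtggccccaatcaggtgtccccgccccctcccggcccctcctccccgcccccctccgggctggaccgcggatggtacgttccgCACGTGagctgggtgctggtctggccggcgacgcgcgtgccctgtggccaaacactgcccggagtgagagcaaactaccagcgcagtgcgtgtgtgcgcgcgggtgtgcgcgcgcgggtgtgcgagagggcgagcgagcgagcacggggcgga

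Ciart held 3 copies of CACGTG, at 44, 58 and 116 bases before its start, and 20 of the 32851 promoter windows of this length (0.0609%) held as many. Cry1 and Bhlhe41 held 1 copy each, at 60 and 153 bases before the start, and 6.02% of all windows held at least 1. Cry2 held no CACGTG in its window, but 1 copy of CACGTT at 166 bases, a variant that Cry1 also carried at 79 bases and that 3.85% of all windows held. The D-box (TTATGTAA or TTACGTAA, 0.932% of all windows), the orphan receptor site AGGTCA (14.02%) and the cyclic AMP response element TGACGTCA (1.55%) were in none of the 4 windows. Bhlhe40 is named only. On GRCm38.p6 Cry1 spans chr10:85131700-85185054, Cry2 chr2:92403646-92434085, Ciart chr3:95878500-95882257 and Bhlhe41 chr6:145858243-145865420, all on the minus strand, and Bhlhe40 spans chr6:108660629-108666925 on the plus strand. As printed, the last bases of the Cry2 and Ciart windows lie inside these RefSeq gene spans. The starts used for these windows are thus not the ends of the spans. Annotated genes lie on the opposite strand across Cry2 (D930015M05Rik), the whole of Ciart (C920021L13Rik), the start of Bhlhe40 (0610040F04Rik) and Bhlhe41 (Gm43909), and their reads cannot be told apart from those of the members; none overlaps Cry1.

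The libraries held 28172989 to 36183392 recovered reads. Skeletal muscle markers were detected in every library, 7 of 7, with a summed level of 100767 to 228836 CPM. All markers of adipocytes (5 of 5, 118 to 488 CPM), endothelium (3 of 3, 139 to 411 CPM), leukocytes (4 of 4, 12.4 to 72.9 CPM), red blood cells (5 of 5, 185 to 1677 CPM), fibroblasts (3 of 3, 584 to 2122 CPM), satellite cells (2 of 2, 4.77 to 9.52 CPM) and Schwann cells (3 of 3, 35.9 to 539 CPM) were detected in every library too. Between ZT24 and ZT0, the same clock time, no gene differed in NRF (limma, Benjamini-Hochberg, 0% of 12024, 934 at an unadjusted p under 0.05). In DRF 33 genes did (limma, 0.274%, 2283 at an unadjusted p under 0.05). None of the 5 members was among them, at an unadjusted p under 0.05 in 0 cases in NRF and 1 in DRF.

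All 5 repressors passed the test of a daily rhythm under both feeding regimens. Each peaked within about the same part of the day whether food came by day or by night. The Cry1 call in DRF was the weakest (limma, adjusted p = 0.0186) and was lost under some of the 69 alternatives. The authors' deposited meta2d q for Cry1 in DRF was 0.302. Ciart had by far the widest swing, Bhlhe41 came next, and Cry1 was low at ZT8, near the highs of the other 4, and highest at ZT20 in both regimens. Between the regimens the rhythm of Cry1 was the one that differed by test, with the smaller swing under daytime feeding. The other 4 had nominally smaller swings under daytime feeding too, and did not pass that test. A 24 h cosine passed the test in 5 of 5 members in NRF, where 15.1% of all genes tested passed, and in 5 of 5 in DRF, where 48.7% passed (limma moderated F test, Benjamini-Hochberg adjusted p under 0.05).

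Recovered reads per library, the depth behind these values, ran from 345 to 1265 for Cry1, 740 to 2137 for Cry2, 12 to 670 for Ciart, 1552 to 7132 for Bhlhe40 and 418 to 2493 for Bhlhe41. Per kilobase of the gene length behind the deposited values, Bhlhe40 was the most abundant, at a mean of 27.8 CPM per kilobase over all libraries. Cry1 (6.38), Cry2 (6.24) and Bhlhe41 (5.72) lay near each other on that scale, and Ciart was lowest at 1.84.

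**Figure D1:**
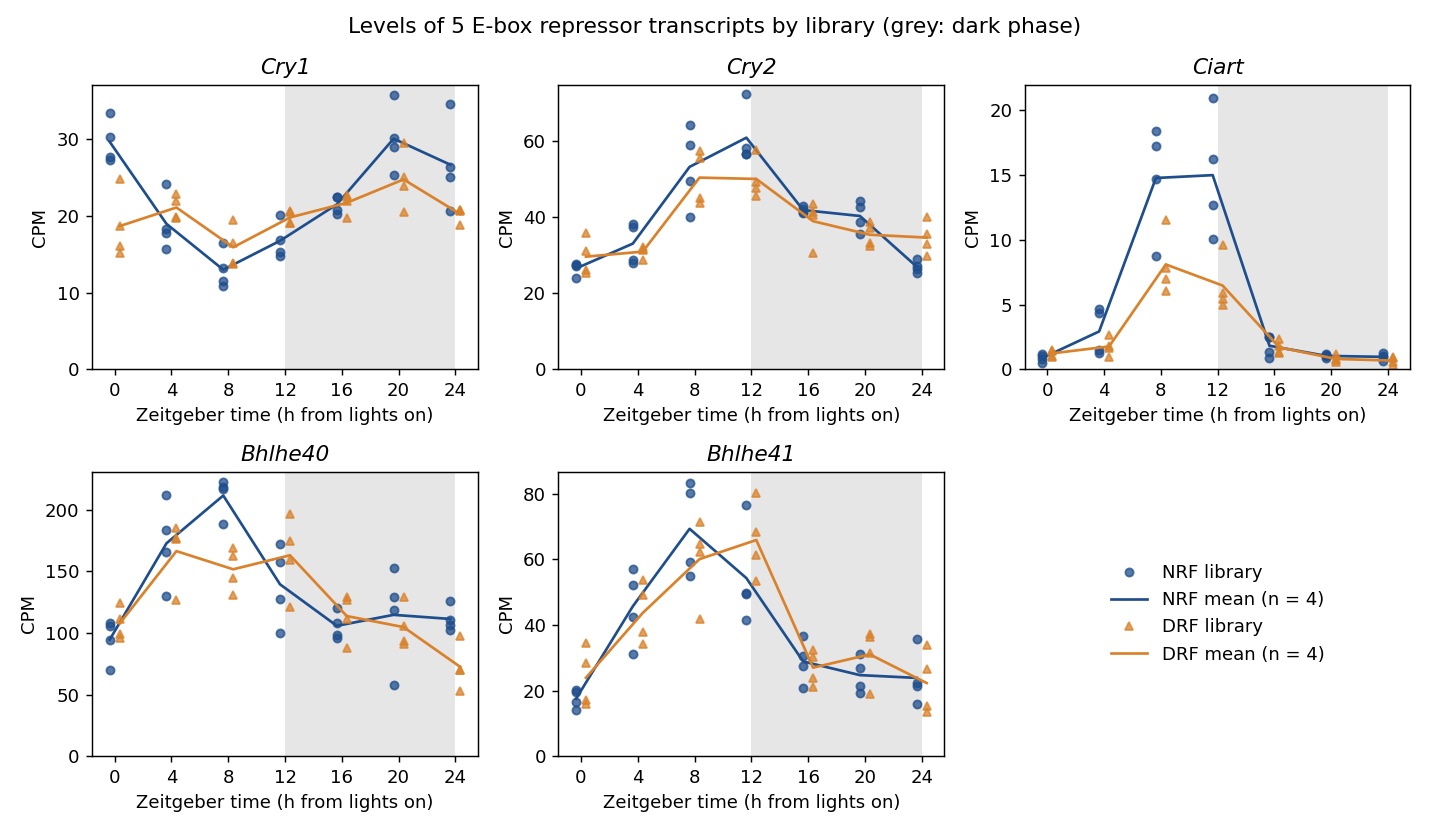
CPM of each member (y axis, from 0) against zeitgeber time (x axis, h), with points for libraries, lines for the means of 4 libraries, circles for NRF, triangles for DRF and grey for the dark phase. Ciart is near 15 CPM in NRF and 8.10 or less in DRF at ZT8 and ZT12, while the Cry1 lines separate at ZT0, 29.6 against 18.6 CPM.

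Cry1 encodes the cryptochrome whose transcript is known to peak later than those of most E-box genes. It was highest at ZT20 in both regimens, and in NRF still high at ZT0. In NRF its mean fell from 29.6 ± 2.83 CPM at ZT0 to 12.96 ± 2.49 at ZT8 and stood at 29.99 ± 4.33 at ZT20 (SD, n = 4), a 2.31-fold range. In DRF the same low and high times gave 15.9 ± 2.70 CPM at ZT8 and 24.7 ± 3.67 at ZT20, a 1.56-fold range. The fitted peak-to-trough difference was 1.12 (95% interval 0.90 to 1.34) in NRF and 0.39 (0.15 to 0.62) in DRF, on the log2(CPM + 1) scale on which all fitted values below are given.

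The Cry1 rhythm differed between the regimens at the same clock time (limma moderated F test, adjusted p = 0.000595), with a peak-to-trough difference, DRF minus NRF, of -0.73 (95% interval -1.06 to -0.41). Cry1 was the only 1 of the 5 members to pass this test, and 13.1% of all genes passed it, 4.07% with the smaller swing in DRF. An unadjusted p under 0.05 came up in 3 of the 5 members and in 3448 of the 12024 genes (limma). The Cry1 rhythm itself passed in NRF at an adjusted p of 7.33e-11 and in DRF at 0.0186 (limma, Benjamini-Hochberg). By size of swing Cry1 ranked 174 of 12024 genes in NRF and 3316 in DRF. The DRF rhythm call was lost with total-count scaling (adjusted p = 0.0904), with array weights (0.0584), and without replicate 2 (0.0577) or replicate 3 (0.0577) of DRF at ZT8 or replicate 1 of DRF at ZT20 (0.0604), whereas the difference between regimens passed under all 69 alternatives run, at limma adjusted p-values of 5.86e-05 to 0.0112.

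The largest gap in Cry1 lay at lights on. At ZT0 the 4 NRF libraries read 33.4, 30.2, 27.2 and 27.6 CPM and the 4 DRF libraries 24.7, 18.6, 15.1 and 16.1 CPM. Every NRF library was above every DRF library. The means were 29.6 ± 2.83 and 18.6 ± 4.32 CPM (SD, n = 4), a log2 difference, DRF minus NRF, of -0.66 ± 0.13 (SE, limma, adjusted p = 0.00433). At that time 1.85% of all genes differed, 0.965% with a lower level in DRF, and the libraries of the regimens did not overlap in 7.98%. Without DRF replicate 1 of ZT0 the count over all genes fell from 222 to 65, and Cry1 was called without any 1 library. Red blood cell markers (5 of 5 detected) moved at ZT0 too, with a summed level of 326 to 457 CPM in NRF and 551 to 825 CPM in DRF, and their part in the Cry1 result was not tested. In bulk tissue fewer cells of a type and less RNA per cell cannot be told apart, here or below.

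A day later at ZT24 the Cry1 gap had the same direction. NRF libraries read 25.0, 20.6, 26.3 and 34.5 CPM and DRF libraries 20.5, 18.8, 20.7 and 20.8 CPM, so that the lowest NRF library lay within the DRF range. The log2 difference of -0.36 ± 0.13 did not pass (SE, limma, adjusted p = 0.099), and passed with array weights (0.0362) and without NRF replicate 2 of ZT24 (0.0379). At ZT8, the low point, DRF was nominally above NRF by 0.28 ± 0.13 on the log2 scale (limma, adjusted p = 0.674), with DRF libraries at 16.5, 13.9, 13.7 and 19.5 CPM against 13.2, 16.4, 10.8 and 11.4 CPM. The groups overlapped there, as they did at ZT4, ZT12, ZT16 and ZT20.

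Cry1 peaked at ZT21.1 (95% interval 20.3 to 21.8) under NRF and at ZT19.0 (16.9 to 21.1) under DRF. The interval of the difference, -4.29 to 0.12 h around -2.09 h, included no shift. That estimate moved with the scaling, to -0.46 h with total-count scaling, and to -0.96 h without the ZT0 libraries. Over the 14 groups, ordered by mean, every neighbouring pair of Cry1 groups overlapped between their libraries, from NRF at ZT20 at the top to NRF at ZT8 at the bottom.

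Cry2, the second cryptochrome, is known to repress alongside Cry1, and here it was high around lights off. In NRF it rose from 26.5 ± 1.69 CPM at ZT0 to 60.8 ± 7.65 CPM at ZT12 (SD, n = 4), 2.29-fold. In DRF the lowest mean was 29.6 ± 4.93 CPM at ZT0 and the highest 50.3 ± 7.05 at ZT8, 1.70-fold. At ZT12 the NRF libraries read 56.5, 58.0, 56.5 and 72.2 CPM and the DRF libraries 49.2, 47.6, 57.5 and 45.6 CPM. Of the DRF libraries 1 reached the NRF range and 3 lay below it, and the log2 difference of -0.28 ± 0.12 did not pass (SE, limma, adjusted p = 0.165).

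The fitted Cry2 peak was at ZT11.9 (95% interval 11.1 to 12.8) under NRF and ZT11.4 (10.03 to 12.8) under DRF, a difference of -0.54 h (-2.16 to 1.08). Its peak-to-trough value was 1.05 in NRF and 0.67 in DRF, and the interval of the difference, -0.68 to -0.08 around -0.38, lay below 0. The test of cosine and sine together did not pass for Cry2 (limma, adjusted p = 0.144), while the rhythm passed in each regimen (1.57e-10 in NRF, 1.10e-05 in DRF). With total-count scaling it did pass (limma, adjusted p = 0.0449), as did the Cry2 difference at ZT12 (0.0208) and on the day average (0.00677). The same scaling moved the DRF peak of Cry2 to ZT10.3 and the peak difference to -1.40 h. At ZT24 the DRF libraries of Cry2 (39.99, 33.0, 29.9 and 35.6 CPM) all lay above the NRF libraries (26.3, 25.3, 27.2 and 29.1 CPM). That difference of 0.34 ± 0.12 did not pass over all genes (limma, adjusted p = 0.0775), and 12.2% of genes did not overlap at ZT24. Among neighbours in the order of the 14 Cry2 means, the step from DRF at ZT12 (50.0 CPM) down to NRF at ZT16 (41.8 CPM) was the only one without overlap.

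The balance of the cryptochromes, given as the ratio of Cry1 to Cry2 per unit length within each library, is a description without a test. In NRF Cry1 exceeded Cry2 at ZT0 by 2.11 ± 0.18 (SD, n = 4, range 1.89 to 2.33) and fell below it at ZT8, at 0.464 ± 0.0399. In DRF the ratio was 1.22 ± 0.39 at ZT0 (range 0.977 to 1.80), and its lowest mean was 0.603 ± 0.105 at ZT8. The ratio was thus lower in DRF than in NRF at ZT0 in every library. At ZT24 it stood at 1.85 ± 0.29 in NRF (1.54 to 2.25) and 1.12 ± 0.14 in DRF (0.972 to 1.31), again with no overlap. At ZT12 the direction was the other way, 0.520 ± 0.0312 in NRF (0.495 to 0.561) against 0.755 ± 0.0962 in DRF (0.625 to 0.855). At the other 4 times the regimens overlapped. How often ratios of other gene pairs part in this way was not tested.

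**Figure D2:**
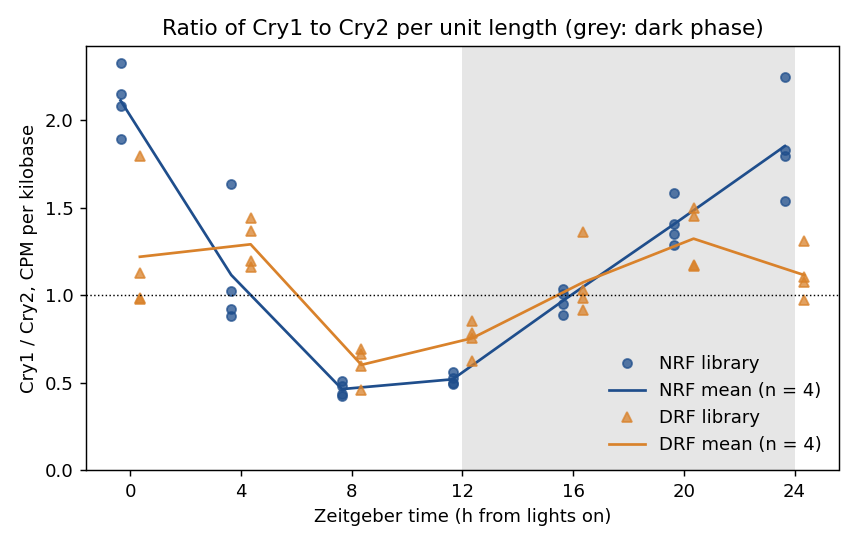
Ratio of Cry1 to Cry2 in CPM per kilobase (y axis, from 0; dotted line at 1) against zeitgeber time (x axis, h), with points for libraries, lines for means of 4 and grey for the dark phase. The NRF line runs from 0.464 to 2.11 and the DRF line from 0.603 to 1.32, with no overlap of libraries at ZT0, ZT12 and ZT24.

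Ciart, the small repressor that binds BMAL1, was at or near 1 CPM for much of the day and rose sharply in the second part of the light phase. In NRF its mean went from 0.889 ± 0.285 CPM at ZT0 to 14.8 ± 4.30 at ZT8 and 14.99 ± 4.70 at ZT12 (SD, n = 4), a 16.9-fold range. In DRF it reached 8.10 ± 2.40 CPM at ZT8 and 6.48 ± 2.10 at ZT12, and its lowest mean was 0.685 ± 0.254 at ZT24, an 11.8-fold range. By fitted swing Ciart ranked 5 of 12024 genes in NRF and 12 in DRF. The groups at ZT8 and ZT12 stood apart from the rest, since the step from DRF at ZT12 to the next group, NRF at ZT4 (2.93 CPM), was the only one between neighbouring Ciart groups without overlap.

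At ZT12 the NRF libraries of Ciart read 20.9, 16.3, 10.1 and 12.7 CPM and the DRF libraries 5.44, 5.87, 9.59 and 5.01 CPM. All DRF libraries were below all NRF libraries, the closest pair being 9.59 and 10.1 CPM. The NRF mean was 2.32 times the DRF mean, and the log2 difference of -1.09 ± 0.24 passed (SE, limma, adjusted p = 0.0111). Differences passed in 3.5% of all genes at ZT12, in 1.36% with the lower level in DRF, and 10.5% did not overlap. Single libraries move that share: the 421 genes called became 51 without DRF replicate 1 or without NRF replicate 3, and 1117 without NRF replicate 4. The call was lost on the log2 of the deposited values (limma, adjusted p = 0.215) and without DRF replicate 1 (0.0582) or 4 (0.063) of ZT12. Adipocyte markers (5 of 5 detected) were also lower in DRF at ZT12, at 118 to 198 CPM in sum against 203 to 337 CPM, and their part in the Ciart result was not tested. The correlation across genes of the deviation in level with gene length, taken as a sign of RNA quality, was also lower in DRF at ZT12 (-0.14 against 0.07, means of 4). With that length trend removed the Ciart difference was -1.15 (limma, adjusted p = 0.00695).

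At ZT8 the NRF libraries of Ciart read 17.2, 18.4, 8.76 and 14.7 CPM and the DRF libraries 6.03, 7.83, 7.02 and 11.5 CPM. The ranges overlapped through 1 library of each regimen, and the log2 difference of -0.78 ± 0.24 did not pass (SE, limma, adjusted p = 0.214). Averaged over the day, with ZT0 and ZT24 counted as 1 time, Ciart was lower in DRF by a log2 difference of -0.42 ± 0.10 (SE, limma, adjusted p = 0.0045). It was the 1 member of 5 that differed on this average, where 15.9% of all genes did. The call was lost on the log2 of the deposited values (limma, adjusted p = 0.0602). By time, the log2 difference of Ciart was largest at ZT12 (-1.09) and ZT8 (-0.78). At the other times it ran from -0.41 at ZT4 to 0.25 at ZT0.

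The fitted peak times of Ciart were close. The peak lay at ZT9.70 in both regimens, with 95% intervals of 9.12 to 10.3 in NRF and 8.88 to 10.5 in DRF, and the difference of -0.00404 h had an interval of -1.01 to 1.00 h. The peak-to-trough value was 3.36 in NRF and 2.37 in DRF, with an interval of the difference (-1.68 to -0.30, around -0.99) below 0. The test of the whole rhythm did not pass for Ciart (limma, adjusted p = 0.102), although the rhythm itself passed in NRF (2.70e-15) and DRF (3.72e-10). When 12 h terms were added to the 24 h terms the difference passed, at a limma adjusted p of 0.017.

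Ciart was also the 1 member of 5 with a 12 h component in NRF, of a peak-to-trough value of 1.07 (limma moderated F test, adjusted p = 0.0121; 4.44% of all genes passed). The NRF means behind it were high at ZT8 and ZT12 and at 2.93 CPM or less at the other 5 times. In DRF the same component was 0.72 (limma, adjusted p = 0.0863). No member passed this test in DRF, where 1.66% of all genes did. An unadjusted p under 0.05 came up there in 2 members and in 1930 of the 12024 genes (limma). On the log2 of the deposited values the call passed from Ciart (limma, adjusted p = 0.261) to Cry2 (0.0292).

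Bhlhe40, the more abundant of the pair of helix-loop-helix repressors, was high through most of the light phase. In NRF its mean climbed from 94.6 ± 17.2 CPM at ZT0 to 173 ± 34.5 at ZT4 and 212 ± 15.8 at ZT8 (SD, n = 4), 2.24-fold. In DRF it was 167 ± 26.7 CPM at ZT4, 152 ± 17.5 at ZT8 and 163 ± 31.9 at ZT12, and lowest at 72.5 ± 18.4 at ZT24, 2.30-fold below its ZT4 level. NRF thus had its highest mean at ZT8, while the DRF means at ZT4, ZT8 and ZT12 lay within each other's SD. At ZT8 the NRF libraries (217, 223, 188 and 219 CPM) all lay above the DRF libraries (145, 131, 163 and 169 CPM). That difference of -0.48 ± 0.20 on the log2 scale did not pass (SE, limma, adjusted p = 0.494), at a time when 0.208% of all genes passed and 4.65% did not overlap.

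The Bhlhe40 call at ZT24 was not matched at ZT0. At ZT24 the NRF libraries read 103, 126, 110 and 107 CPM and the DRF libraries 69.7, 70.1, 52.8 and 97.3 CPM. They did not overlap, as in 12.2% of all genes. The log2 difference was -0.64 ± 0.20 (SE, limma, adjusted p = 0.0417), where 5.56% of all genes passed, 2.06% with the lower level in DRF. At ZT0, the same clock time, NRF libraries read 70.4, 106, 94.4 and 108 CPM and DRF libraries 99.1, 96.0, 112 and 124 CPM, with a log2 difference of 0.20 ± 0.20 (SE, limma, adjusted p = 0.756). The ZT24 call was lost without a filter on low genes (limma, adjusted p = 0.0576) and without DRF replicate 1 (0.0963), 2 (0.0524) or 3 (0.148) or NRF replicate 1 (0.0662), 2 (0.0939), 3 (0.0786) or 4 (0.0804) of that time. Adipocyte markers (5 of 5 detected) were higher in DRF at ZT24, at 281 to 295 CPM in sum against 173 to 248 CPM, and their part in the Bhlhe40 result was not tested.

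The rhythm of Bhlhe40 did not differ by test between the regimens (limma, adjusted p = 0.51). It passed in NRF (0.000102) and in DRF (0.000201), with peak-to-trough values of 1.06 and 0.93 and an interval of their difference of -0.64 to 0.39. The peak was at ZT7.73 (95% interval 6.48 to 8.98) under NRF and ZT9.18 (7.69 to 10.7) under DRF, a difference of 1.45 h with an interval of -0.49 to 3.40 h. Without the ZT24 libraries the DRF peak moved to ZT8.10 and the difference to 0.40 h. Such an interval holds shifts of some hours in the later direction as well as none.

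Bhlhe41, the other helix-loop-helix repressor, swung more widely than Bhlhe40. In NRF its mean went from 17.5 ± 2.84 CPM at ZT0 to 69.2 ± 14.4 at ZT8 (SD, n = 4), 3.96-fold, and in DRF from 22.3 ± 9.62 at ZT24 to 65.8 ± 11.4 at ZT12, 2.95-fold. At ZT8 the NRF libraries read 83.2, 80.0, 54.8 and 59.0 CPM and the DRF libraries 62.2, 71.3, 41.8 and 64.7 CPM. At ZT12 the NRF libraries read 49.5, 49.7, 41.4 and 76.5 CPM and the DRF libraries 68.2, 53.4, 80.3 and 61.4 CPM. The groups overlapped at both times, and at every other time. The libraries of DRF at ZT0 were spread from 15.8 to 34.5 CPM, against 14.003 to 20.2 CPM in NRF.

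Bhlhe41 passed the rhythm test in NRF (limma, adjusted p = 4.56e-08) and in DRF (9.27e-07), with peak-to-trough values of 1.76 and 1.53 (interval of the difference -0.85 to 0.38). Its peak was at ZT9.13 (95% interval 8.17 to 10.1) under NRF and ZT9.49 (8.38 to 10.6) under DRF, a difference of 0.36 h (-1.10 to 1.83). No difference in rhythm was detected (limma, adjusted p = 0.805). By rank of swing it stood at 56 of 12024 genes in NRF and 77 in DRF. Per unit length Bhlhe40 exceeded Bhlhe41 in every group, with mean ratios from 3.54 (DRF, ZT12) to 7.96 (NRF, ZT0), and the ratios of the regimens overlapped at every time.

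**Figure D3:**
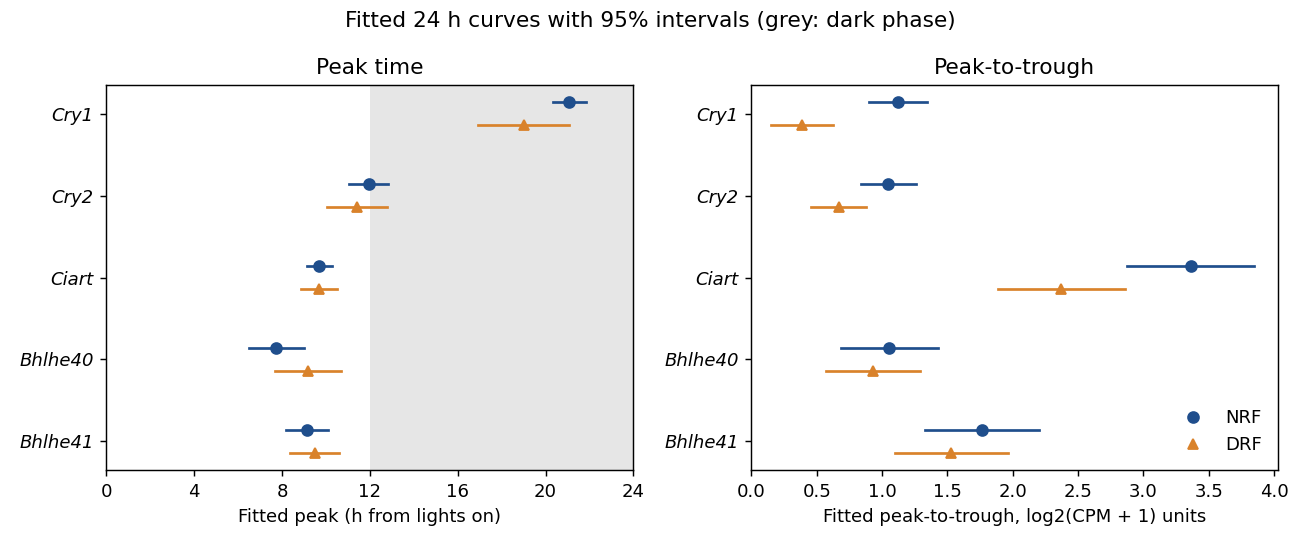
Left, fitted peak time (x axis, h from lights on, grey for the dark phase). Right, fitted peak-to-trough difference (x axis, log2(CPM + 1) units, from 0), each for the 5 members with 95% intervals, circles for NRF and triangles for DRF. The peaks of Cry1 lie at ZT21.1 and ZT19.0, and the Cry1 swing is 1.12 in NRF and 0.39 in DRF.

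The rhythm in DRF was also compared with that of NRF shifted by 12 h. A gene with a rhythm in a single regimen can depart from such a shift too, and what sets the peak times was not tested. All 5 members differed from such a shift (limma moderated F test, Benjamini-Hochberg adjusted p from 6.61e-19 for Ciart to 1.36e-07 for Bhlhe40), where 45.8% of all genes did. The intervals of the peak difference given above ran from -4.29 h (Cry1, lower bound) to 3.40 h (Bhlhe40, upper bound), and none reached 12 h in either direction. Among the 1127 genes rhythmic in both regimens (9.37% of those tested), 47.7% had peaks within 2 h of each other; 4 of the 5 members did.

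The fitted swing was nominally smaller in DRF in 5 of 5 members. For Bhlhe40 that direction turned without the ZT0 libraries, where the peak-to-trough difference was 0.00565. The median peak-to-trough value of the members was 1.12 in NRF and 0.93 in DRF, beside 0.16 and 0.26 over all genes tested, of which 29.2% had the smaller swing in DRF. Among the genes rhythmic in both regimens that share was 56.3%. The interval of the difference lay below 0 for Cry1, Cry2 and Ciart and included 0 for Bhlhe40 and Bhlhe41.

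Over the 35 comparisons of a member with itself at 1 clock time, 3 passed: Cry1 at ZT0, Ciart at ZT12 and Bhlhe40 at ZT24. None passed at ZT4 (limma, 0.973% of all genes passed), ZT8 (0.208%), ZT16 (10.8%) or ZT20 (2.96%). At these times 0, 3, 0 and 1 members had an unadjusted p under 0.05 (limma). Of all 12024 genes, 1367, 874, 3336 and 2256 did. These calls share the 5 genes and the 56 libraries.

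**Figure D4:**
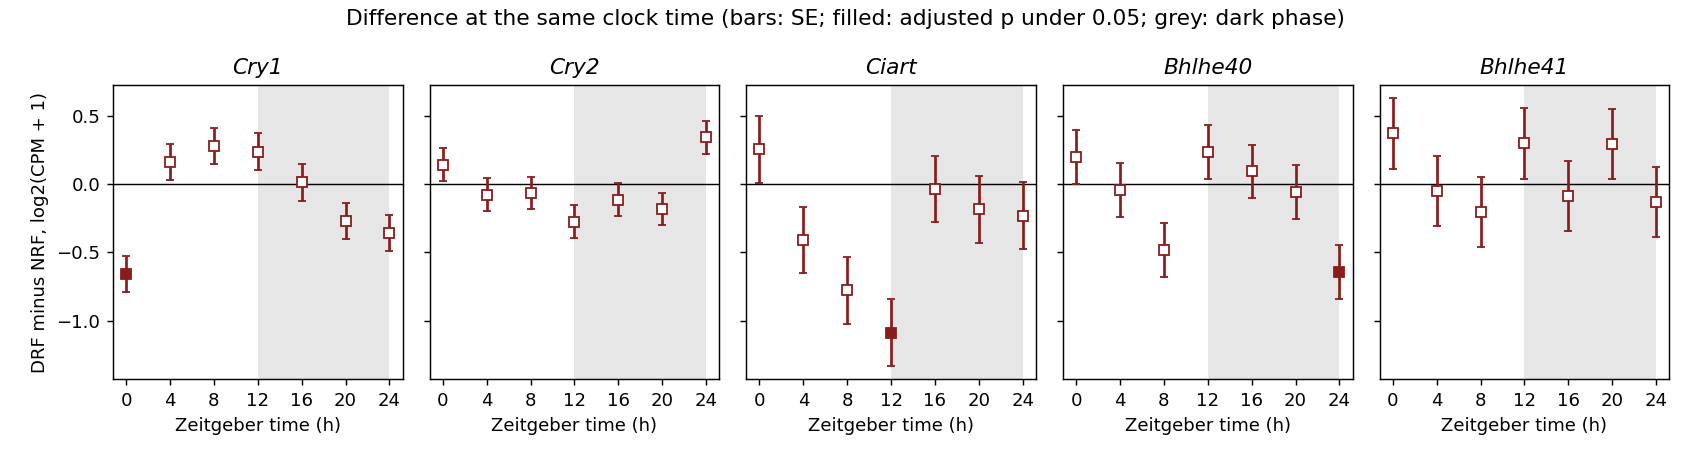
Difference of DRF minus NRF in log2(CPM + 1) (y axis) against zeitgeber time (x axis, h), 1 panel per member, with the limma estimate and its SE, filled squares for an adjusted p under 0.05 and grey for the dark phase. Filled squares lie at ZT0 for Cry1 (-0.66), ZT12 for Ciart (-1.09) and ZT24 for Bhlhe40 (-0.64).

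Correlations over the 14 group means of log2(CPM + 1) describe how alike the profiles were in shape, whatever the size of the swing. The points share their libraries, and neighbouring times are not independent. Cry1 ran against the other members, with a Pearson r of -0.79 with Ciart, -0.75 with Bhlhe41 and -0.62 with each of Cry2 and Bhlhe40. Ciart and Bhlhe41 (0.88), Bhlhe40 and Bhlhe41 (0.88) and Cry2 and Ciart (0.85) had the highest r. Cry2 with Bhlhe41 (0.75) and Ciart with Bhlhe40 (0.74) were lower, and Cry2 with Bhlhe40 was lowest of the positive pairs at 0.47. The profiles most like that of Cry1 were those of P4ha2, a subunit of the enzyme that hydroxylates collagen prolines (0.92), Camk2n1, an inhibitor of a calcium-dependent kinase (0.92), and Ypel2 (0.88). Most like Cry2 were Rsad1 (0.95), Fam76a (0.94) and Tef, a clock-controlled transcription factor that binds D-boxes (0.92). Ciart was matched best by Slc25a33, a mitochondrial nucleotide carrier (0.96), Gstt2, a glutathione transferase (0.94), and Asb8 (0.93). The swing of Slc25a33 was 0.72 in NRF and 0.30 in DRF, against 3.36 and 2.37 for Ciart. Asb8 was also the nearest to Bhlhe41 (0.95), followed by Macir (0.91) and Tnfrsf21, a death receptor (0.91), and Bhlhe40 was nearest to Rbfox1, a splicing factor (0.89), Macir (0.87) and Jarid2, a component of a Polycomb complex (0.87).

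The genes around the repressors were taken from lists of the clock and its regulators. Of 14 other genes of the clock loop, 13 passed the rhythm test in NRF and 12 in DRF. These are 92.9% and 85.7% of the list, beside 15.1% and 48.7% of all genes. All 14 of 14 departed from a 12 h shift, beside 45.8% of all genes. At the same clock time 3 had a rhythm that differed (21.4%, beside 13.1% of all genes). These were Arntl, which encodes BMAL1 (peak-to-trough 3.20 in NRF, 2.13 in DRF, limma adjusted p = 0.0279), Per1, a period gene (2.90 and 0.86, 0.0138), and Nr1d1, which encodes the repressor REV-ERBα (3.85 and 1.72, 7.58e-05). Counts of Nr1d1 had decimals, so its reads may be shared with other genes and its value is uncertain. Like Cry1, these 3 had the smaller swing in DRF, as 11 of the 14 did, with a list median of 2.51 in NRF and 1.76 in DRF. The smaller swing was in DRF for 29.2% of all genes tested and for 56.3% of those rhythmic in both regimens. Arntl peaked at ZT22.9 in NRF and ZT22.6 in DRF, near Cry1 and opposite to Ciart.

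Of 15 tested genes (16 listed) that act on the stability of cryptochrome and period proteins, 4 passed the rhythm test in NRF and 10 in DRF, with 2 that differed between the regimens. These are 26.7%, 66.7% and 13.3% of the list, beside 15.1%, 48.7% and 13.1% of all genes. Usp2, a deubiquitinase known to act on clock proteins, swung by 1.55 in NRF and 0.78 in DRF (limma, adjusted p = 0.00583). Gsk3b, a kinase that phosphorylates clock proteins, went the other way, with 0.16 in NRF and 0.42 in DRF (limma, adjusted p = 0.0403), and its rhythm passed in DRF only (0.00019, against 0.343 in NRF).

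Among 13 corepressors 7 passed the rhythm test in NRF and 8 in DRF, with 2 that differed, which are 53.8%, 61.5% and 15.4% of the list beside the same shares of all genes. Tle1, a corepressor of the Groucho family, had a swing of 0.86 in NRF and 0.26 in DRF (limma, adjusted p = 0.000471), with peaks at ZT19.7 and ZT18.7, and Tbl1x, a subunit of the NCoR complex, peaked at ZT23.3 in NRF and ZT8.46 in DRF (limma, adjusted p = 0.000657). Of 9 tested helix-loop-helix repressors other than the members (11 listed), 2 passed the rhythm test in NRF and 3 in DRF (22.2% and 33.3%, beside 15.1% and 48.7% of all genes). None differed between the regimens (limma, 0 at an unadjusted p under 0.05), and the lowest adjusted p was 0.31.

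The authors' deposited table of rhythm tests gave Cry1 a meta2d BH-adjusted q of 7.82e-08 in NRF and 0.302 in DRF, where the limma fit gave 7.33e-11 and 0.0186. For Cry2 the authors' deposited table listed 4.97e-07 and 0.000442, for Ciart 8.03e-07 and 1.90e-06, for Bhlhe40 0.0105 and 0.0119, and for Bhlhe41 1.11e-05 and 0.000604, all below 0.05 as in the limma fit. Of the 16119 genes in the authors' deposited table, 7.16% in NRF and 15.9% in DRF had a q below 0.05. The phases in the authors' deposited table were 22.1 and 19.3 h for Cry1, 12.7 and 11.7 h for Cry2, 10.6 and 9.86 h for Ciart, 7.71 and 8.96 h for Bhlhe40, and 9.13 and 10.2 h for Bhlhe41, in NRF and DRF.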

How the data were processed

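RNA-seq was measured in 56 libraries of 14 groups (2 regimens by 7 times). The submitters' processing notes name HISAT2, Bowtie2, RSEM, mm10 and GRCm38.p6, with versions and roles not given in the sources used here. A table headed TPM was deposited whose values are a score, log2(1 + CPM) divided by gene length and scaled to 1000000 per library; this reading comes from the values deposited by the authors. It was inverted to read counts for 17442 of 19072 genes; 1629 had under 4 values above 0, and 1 could not be inverted. Counts of all 5 members came out whole, within 0.0001, in 56 of 56 libraries. The authors also deposited p-value and q-value columns with phases from their rhythm tests (JTK, LS and meta2d, per the file headers).

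CPM used library sizes inferred from the deposited values (0.854 to 1.21 times the recovered totals). limma 3.58.1 (R 4.3.3, eBayes with trend) was fitted to log2(CPM + 1) over all 12024 genes whose mean CPM reached 1, Benjamini-Hochberg threshold 0.05, with 24 h terms per regimen, 12 h terms added, or group means. A fold change on this scale understates changes of low genes. Peak intervals (95%) used the delta method. The script was tested on simulated data. The members, gene lists and tests were chosen with earlier results of these data known. Named are all members, the 3 profiles most like each, and list genes whose rhythm differed at the same clock time (at most 4 a list). No column of values was left unused (0). Alternatives covered scaling, pseudocount, filter, weights, replicate block, harmonics, and leaving out times or single libraries.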

Additional observations from a re-analysis of the deposited data

Results flagged for a closer look

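In 5 of the 70 sets of 4 libraries (5 members by 14 groups), 1 library lay apart from the other 3 past Dixon's 95% critical value; chance marks about 1 in 20 sets. For Cry1, the second library of DRF at ZT24 read 18.8 CPM against 20.5 to 20.8 CPM in the others. For Cry2, the third library of NRF at ZT0 read 23.99 CPM (others 27.1 to 27.6) and the fourth of NRF at ZT12 72.2 CPM (others 56.5 to 58.0). For Bhlhe40, the fourth library of DRF at ZT4 read 127 CPM (others 176 to 186) and the third of NRF at ZT8 188 CPM (others 217 to 223). None of these 5 libraries is one whose removal ended a call named above, except the second of DRF at ZT24, without which Bhlhe40 at ZT24 had a limma adjusted p of 0.0524. The 12 h component of Cry2 in NRF passed without the third NRF library of ZT8 (limma, adjusted p = 0.0137) and without the fourth of ZT12 (0.0294).

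The 24 h rhythm of Cry1 differed between DRF and NRF by the test of the difference itself (limma, adjusted p = 0.000595).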

How the results depend on the processing

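Each count of members called was recomputed under every alternative. Rhythm in NRF and the difference from a 12 h shift kept 5 of 5 members in each alternative run for all 5, and the rhythm difference at the same clock time kept Cry1. On log2(deposited value + 1), 0 members differed at ZT12 and 0 on the day average. With no filter, 0 differed at ZT24. A mean CPM of at least 5 leaves out Ciart (mean 4.16), so that 0 differed at ZT12, 0 on the day average and 0 had a 12 h component in NRF. Total-count scaling gave 2 members with a different rhythm, 2 at ZT12 and 2 on the day average (Cry2 was added). Quantile normalization gave 2 at ZT24, and array weights gave 2 at ZT24 and 1 with a 12 h component in DRF. Adding 12 h terms gave 2 with a different rhythm. Leaving out single libraries gave 4 to 5 members rhythmic in DRF, 1 to 2 with a 12 h component in NRF, 0 to 1 at ZT12 and 0 to 1 at ZT24; the other counts stayed. The causes were not tested beyond the loss of Ciart under the stricter filter.

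The labels do not say whether libraries of the same number belong together. Over 364 same-numbered pairs the median correlation of deviations was -0.0131, the lowest -0.674, and 33.0% were over 0.1. Such a median cannot exclude a pairing. With the replicate block, the count of members was 5 for rhythm in NRF, 5 in DRF and 1 for the rhythm difference, as without it.

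Total-count scaling shifted the median log2 difference over all genes by -0.0756. Counts over all genes moved more. Array weights gave 2836 genes rhythmic in NRF (1820 without them), 2684 with a different rhythm (1578), 430 at ZT0 (222), 597 at ZT4 (117), 160 at ZT8 (25), 115 at ZT20 (356), 1027 at ZT24 (668), and 32 and 769 with a 12 h component in NRF and DRF (534 and 200). Total-count scaling gave 531 at ZT0, 66 at ZT4, 726 at ZT12 (421), 2036 at ZT16 (1293), 3499 on the day average (1909) and 33 with a 12 h component in DRF. On the deposited values 668 genes passed at ZT16, and 1581 and 122 had a 12 h component in NRF and DRF. Quantile normalization gave 235 at ZT20 and 193 with a 12 h component in NRF, and removing the length trend gave 121 at ZT20. A 12 h component was called in 26 in NRF and 56 in DRF without ZT0, and in 339 in DRF without ZT24. Where leaving out a single library moved a count by over 1.5 times, the counts ran from 65 to 142 at ZT0, 39 to 71 at ZT4, 7 to 10 at ZT8, 51 to 1117 at ZT12, 40 to 1998 at ZT16, 60 to 967 at ZT20, 267 to 1079 at ZT24, 1269 to 2917 on the day average, and 49 to 1228 and 109 to 480 for the 12 h component in NRF and DRF. The day average had 1057 with the length trend removed and 1058 without ZT24, which also left 1017 with a different rhythm; contrasts at single times have no value without ZT0 or ZT24 or with 12 h terms.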
